A study of Mus musculus with 2 samples.

Results

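The Lsm, Snrp, Snrnp, Sf3a and Sf3b genes encode core proteins of the spliceosome and their relatives. They were taken as every gene whose symbol starts with Lsm and a digit, or with Snrp, Snrnp, Sf3a or Sf3b, a rule on names alone. The family was selected on the difference between these 2 arrays seen earlier, in the same signals described here, so its values are a description and carry no test. The array named 20655 genes through their transcript accessions, and 41 of them met this rule, with 61 probes. Of these probes 56 were well above background on both arrays by the scanner software's call, 2 on 1 array alone (both for Snrpn) and 3 on neither. Each of the 41 genes had at least 1 probe above background. Another 3 annotated symbols under the rule are pseudogenes and had no probe.

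Spleen RNA from untreated male mice was hybridised to 2 one-colour Agilent arrays, 1 for Loxl3 wild type (Loxl3+/+) and 1 for a sample labelled Loxl3 knock-out (Loxl3-/-). The question is how gene expression in the spleen differs between these genotypes. Strain, age, how the allele was made and whether animals were pooled are not given in the sources used here. With 1 array per group there is no replicate check and no test, and all values describe these 2 arrays. Each difference is the scaled log2 signal on the knockout-labelled array minus that on the wild-type array. Scaling subtracts each array's 75th percentile, which stood at a signal of 974 and 1400, so equal raw signals on both arrays give −0.52. Errors after ± are the scanner software's spot errors carried to the difference, and animal-to-animal variation is not in them. The Loxl3 probe had signals of 117 (wild type) and 125 (knockout-labelled), which is −0.43 ± 0.29 in scaled log2 signal, under 2 software errors. Where that probe lies relative to the deletion is not known here, so it settles the label in neither direction.

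Spliceosomes remove introns from pre-mRNA. They are built from small nuclear RNAs (U1, U2, U4, U5 and U6), each wrapped in proteins, and a minor spliceosome with U11 and U12 handles a rare class of introns. Sm proteins form a ring around most of these RNAs, while Lsm ("like Sm") proteins form the ring on U6 and a sister ring that helps remove the cap from mRNA in the cytoplasm. The SF3a and SF3b complexes belong to the U2 particle and hold it on the branch point of the intron. These genes are expressed in all tissues, and lymphocytes that start to divide are known to make more of their proteins.

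Markers of the labelled tissue were above background, and all 17 genes of B cells, T cells and red pulp macrophages were measured. Relative to the signal trend described below, these lists had medians of 0.16, 0.06 and 0.11. The medians of the plain differences were −0.25, −0.20 and −0.24. Their ends were Cd79a (0.75), Pax5 (0.37), Cd79b (−0.39) and Cr2 (−0.43) for B cells, Cd4 (0.27), Cd3e (0.14), Lck (−0.29) and Cd8a (−0.30) for T cells, and Adgre1 (0.06), Vcam1 (0.05), Hmox1 (−0.33) and Cd5l (−0.86) for macrophages. The arrays stood apart in other markers. All 11 exocrine pancreas genes were over 2-fold higher on the knockout-labelled array, from Cela1 (2.52) and Pnliprp1 (3.41) to Prss1 (4.24) and Clps (4.49), and their geometric mean signal was 452 and 9391. All 7 neutrophil precursor genes were at least 1.5-fold lower, from Prtn3 (−0.80) and Elane (−1.5) to Ltf (−2.60) and Camp (−2.64), with geometric mean signals of 3159 and 1167. Erythroid genes had a median of −0.19, with Klf1 at 0.73, Alas2 at 0.10, Epor at −0.69 and Slc4a1 at −0.82.

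The Lsm1 to Lsm8 genes had the lower scaled signals on the knockout-labelled array, and the Sf3 genes lay on both sides of 0. All 8 ring genes had a log2 difference below 0, from −0.69 for Lsm4 to −0.28 for Lsm3, with a median of −0.49. A difference below 0 was also seen for 59.2% of all genes, and for 77.1% in the 8 highest of 20 signal bins. The 9 Sf3 genes ran from −0.35 for Sf3b5 to 0.47 for Sf3a2, with a median of −0.14. Snrnp48, of the minor spliceosome, was the only one of the 41 genes at 2-fold, higher on the knockout-labelled array by 1.07 ± 0.23. Over all genes 2.57% were at least 2-fold higher and 2.26% lower.

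Promoter sequences of 4 genes are printed because these genes mark both directions: Lsm5 and Lsm7 had differences below 0, and Sf3a2 and Snrnp48 above it. Each is the 250 bases before the gene's start in RefSeq on GRCm38.p6, in the gene's own direction, and for Lsm7 it is the first of 2 windows. Capitals mark CGGAAG or its reverse complement, the core of binding sites of ETS family transcription factors.
Lsm5, chr6:56704700-56704949, minus strand: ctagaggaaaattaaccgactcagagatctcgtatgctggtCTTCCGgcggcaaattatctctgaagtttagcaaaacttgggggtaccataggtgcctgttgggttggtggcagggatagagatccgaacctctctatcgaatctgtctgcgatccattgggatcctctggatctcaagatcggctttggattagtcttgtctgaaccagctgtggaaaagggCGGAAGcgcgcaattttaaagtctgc
Lsm7, chr10:80855210-80855459, minus strand: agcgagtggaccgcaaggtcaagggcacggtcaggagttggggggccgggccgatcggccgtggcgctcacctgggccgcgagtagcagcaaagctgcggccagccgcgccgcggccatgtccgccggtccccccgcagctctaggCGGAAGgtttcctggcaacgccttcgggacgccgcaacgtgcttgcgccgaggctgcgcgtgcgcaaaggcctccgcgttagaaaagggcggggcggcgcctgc
Sf3a2, chr10:80798485-80798734, plus strand: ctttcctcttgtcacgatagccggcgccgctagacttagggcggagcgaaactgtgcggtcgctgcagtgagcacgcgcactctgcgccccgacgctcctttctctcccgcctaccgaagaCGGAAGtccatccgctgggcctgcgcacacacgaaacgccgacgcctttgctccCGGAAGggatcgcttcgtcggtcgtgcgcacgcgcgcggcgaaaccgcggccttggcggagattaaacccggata
Snrnp48, chr13:38204689-38204938, plus strand: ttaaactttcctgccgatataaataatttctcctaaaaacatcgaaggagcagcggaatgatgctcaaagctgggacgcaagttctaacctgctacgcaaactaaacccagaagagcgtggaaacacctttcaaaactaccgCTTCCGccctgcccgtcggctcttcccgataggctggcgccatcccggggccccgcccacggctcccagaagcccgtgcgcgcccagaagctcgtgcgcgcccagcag

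The ETS core was found in all 4 of these promoters, once in Lsm7 and Snrnp48 and 2 times in Lsm5 and Sf3a2. Windows of 300 bases, 250 before to 50 after the start, were at hand for 33 of the 41 genes, 40 windows in all because 5 genes have several. CGGAAG, searched on both strands, was in 22 of the 40 windows (55.0%), against 16.9% of all 32851 windows and 27.5% of the 13900 windows of genes measured here. It was in each of the 7 Sf3 genes with a window and in 2 of the 6 genes among Lsm1 to Lsm8. These 2 were Lsm5 and Lsm7, both printed above, and the other ring genes with a window lacked it. The printed promoters therefore do not stand for the ring genes. Genes with the core had a median log2 difference of −0.23 and those without it −0.46.

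Other motifs were closer to the rest of the genome, or rare. The GC box GGGCGG was in 65.0% of the member windows and 58.1% of windows of measured genes (35.7% of all). The CCAAT box was in 32.5% and 37.3% (37.4% of all), and the YY1 motif in 7.5% and 1.78% (0.852% of all). The ETS core and the GC box shared letters in 2 windows, and the ETS core and the YY1 motif in none of the 40. Member genes with and without the GC box had median differences of −0.30 and −0.20, and for the CCAAT box −0.15 and −0.28. For the TATA box, in 4 genes, the medians were 0.30 and −0.31. These 4 were Sf3b3 (−0.14), Snrpa (0.13), Snrpn (0.48, above background on 1 array alone) and Snrnp48 (1.07). Splits on the YY1, NRF1 and E box motifs rest on 1 or 2 genes. Whether any motif goes with the difference was not tested, and no such split was made over all genes. These are matches of letters and no measure of binding.

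**Figure D1:**
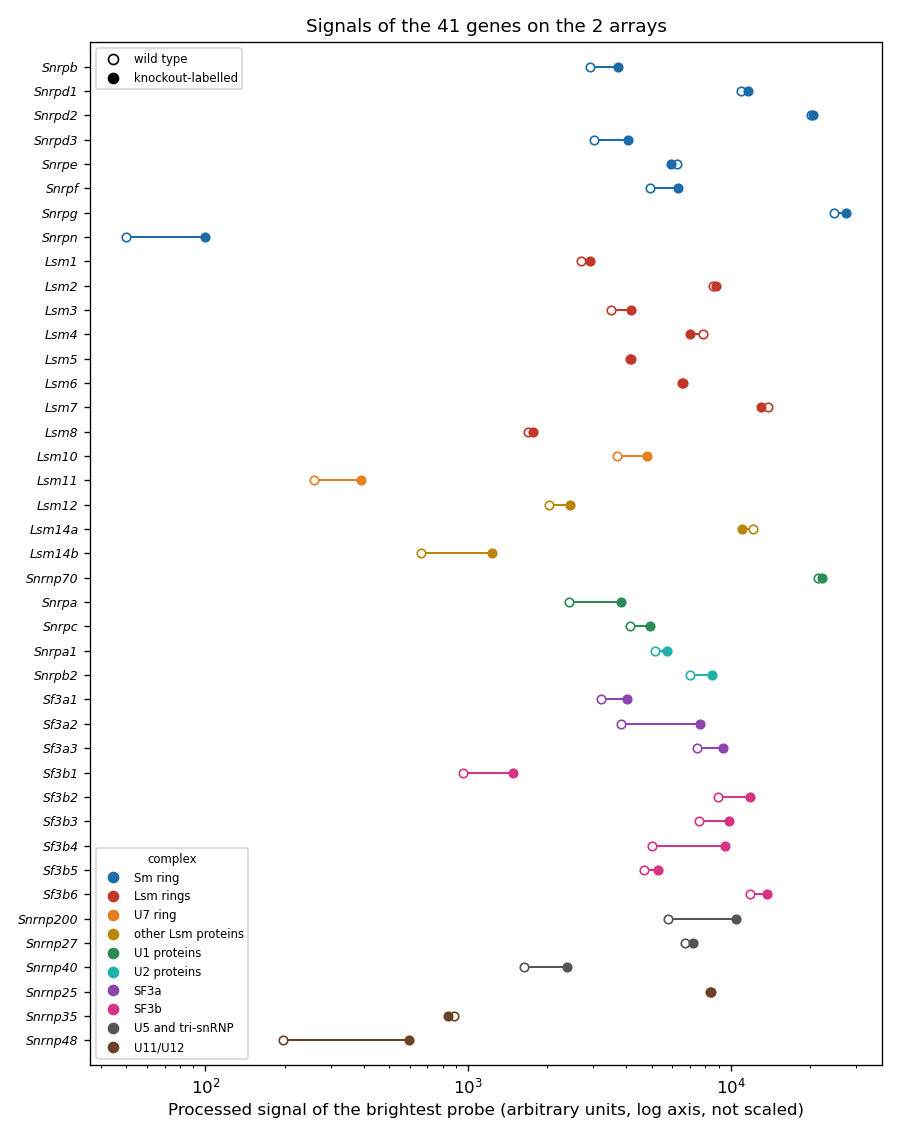
Processed signal of each gene's brightest probe on a log axis (arbitrary units, before scaling), with an open circle for the wild-type array and a filled circle for the knockout-labelled array, coloured by complex. For Lsm1 to Lsm8 the circles lie close together. The filled one is left for Lsm4, Lsm6 and Lsm7 and right for the others, furthest for Lsm3. Sf3a2, Sf3b4, Snrnp200 and Snrnp48 have the filled circle well to the right.

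A trend of the difference on signal level ran through the whole array. Genes were sorted into 20 bins of equal size by mean scaled signal. The median difference of all genes was 0.04 in the second bin and −0.40 in the highest. Of the 41 genes 34 (82.9%) fell in the 8 highest bins, where the trend lies below 0. Over the 41 genes the difference had a Pearson r of −0.56 with signal (Spearman rho −0.46), and over all 13716 measured genes −0.25 (rho −0.32). Genes are not independent replicates, and both quantities come from the same 2 arrays. Each gene is therefore also given by its deviation, the difference minus a smoothed (lowess) trend over all detected probes.

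**Figure D2:**
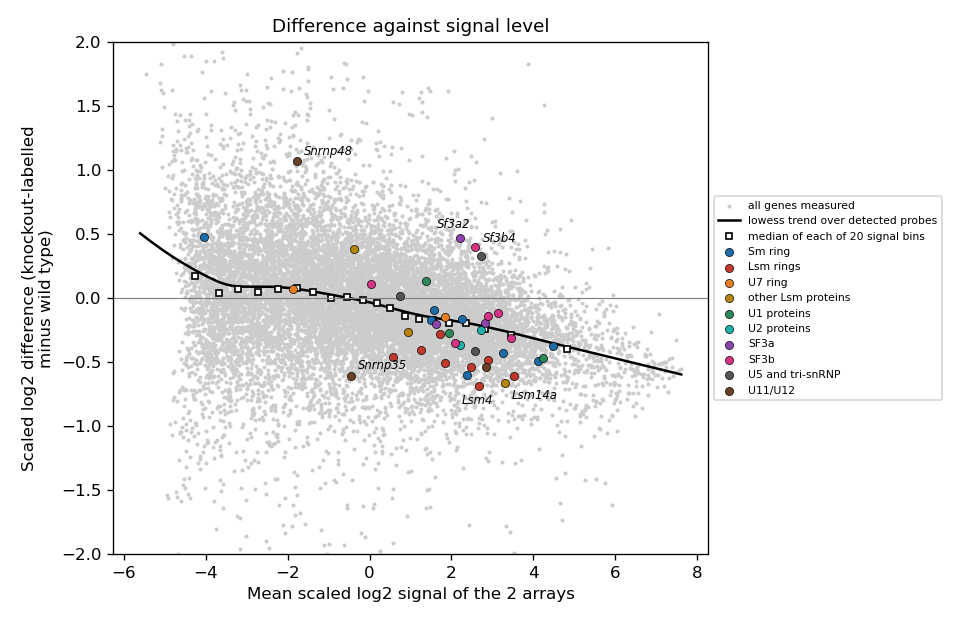
Scaled log2 difference (knockout-labelled minus wild type) against mean scaled log2 signal of all 13716 genes (grey), with the lowess trend (line), bin medians (squares) and the 41 genes coloured by complex; 130 genes lie outside the plotted range. The bin medians fall from 0.17 to −0.40, and most of the 41 genes sit at the high-signal end near the line.

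Most of the 41 genes lay near the trend. Their median difference was −0.27, against −0.09 over all genes, and their median deviation was −0.04, against −0.02. A difference below 0 was seen for 31 of 41 genes, while 59.2% of all genes, and 77.1% of genes in the 8 highest bins, had one (29 of the 34 genes there). At 1.5-fold (0.58 on the log2 scale) 5 genes were lower, against 9.48% of all genes, and 1 was higher, against 8.04%. A difference of over 2 software errors was seen for 14 genes below 0 (17.3% of all genes) and 2 above it (9.97%), Snrnp48 and Sf3a2. At 2-fold none was lower (2.26% of all genes) and 1 was higher (2.57%). This split depended on the scaling: there were 3 higher and 0 lower genes at 1.5-fold when scaling used the probes well above background on both arrays, and 1 higher and 9 lower when each array was scaled on the median of all its probes. Over all genes the shares were then 12.1% higher and 5.69% lower with the first of these scalings, and 6.14% and 14.0% with the second. Quantile normalization gave 2 higher and 1 lower of the 41.

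Relative to the trend, 26 of 41 genes lay below it (52.0% of all genes) and 15 above it (48.0%). Among genes of the 8 highest bins 23 of 34 lay below it (52.6% of all such genes). Deviations of 1.5-fold or more were seen for 3 genes on the higher side (7.58% of all genes) and 1 on the lower side (7.85%). The 3 were Snrnp48 at 1.0, Sf3a2 at 0.65 and Sf3b4 at 0.61, and the 1 was Snrnp35 at −0.61. Deviations over 2 software errors numbered 4 above the trend (11.1% of all genes), with Snrnp200 in addition, and 2 below it (11.4%), Snrnp35 and Lsm4.

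**Figure D3:**
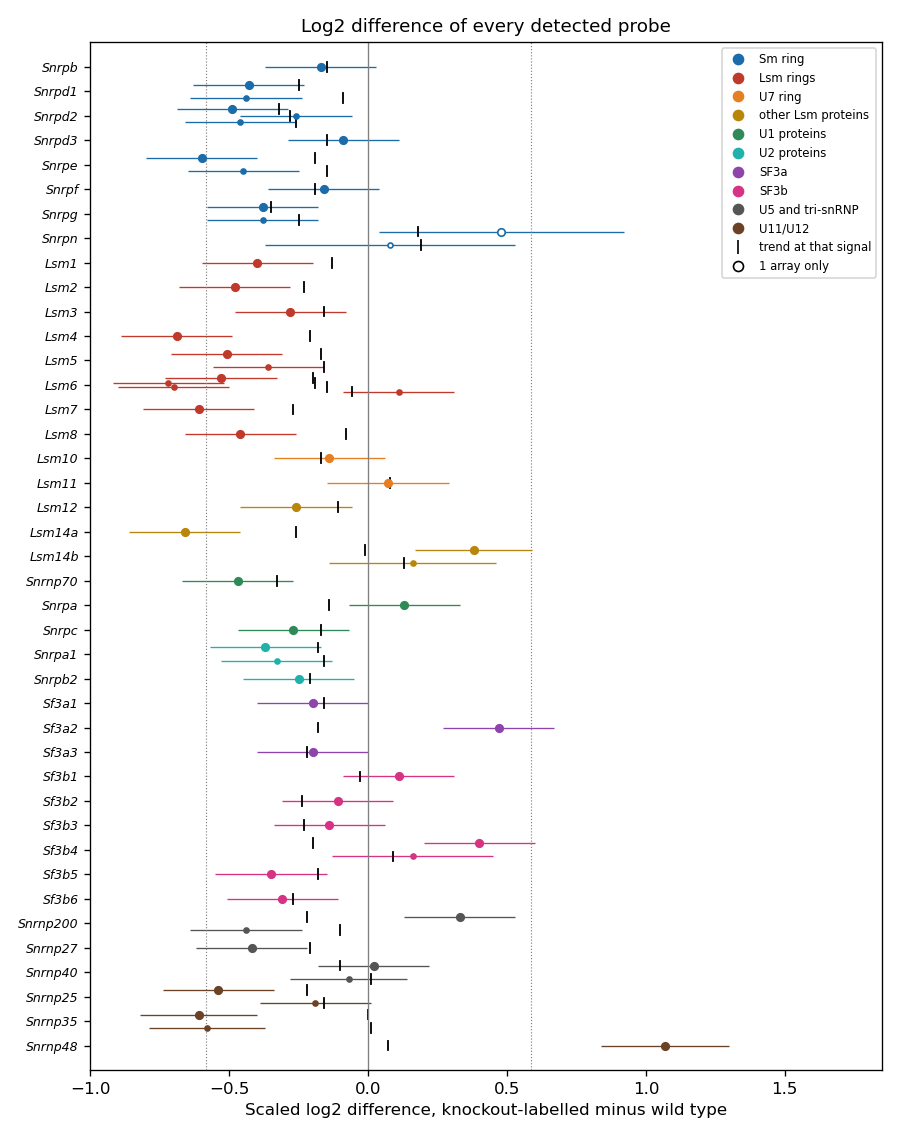
Scaled log2 difference of each detected probe (points, the larger for a gene's brightest probe) with the software's spot error (bars), by gene and complex; vertical ticks give the trend at that probe's signal and dotted lines 1.5-fold. The brightest probes of Lsm1 to Lsm8 lie left of their ticks, Sf3a2, Sf3b4 and Snrnp48 lie right of them, and the probes of Lsm6 and Snrnp200 spread widely.

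Among the complexes of over 2 genes, the Lsm rings were the one with every gene below the trend. Lsm2 to Lsm8 form the ring that binds the 3′ end of U6, and Lsm1 replaces Lsm8 in the cytoplasmic decay ring. All 8 genes lay below the trend, with deviations from −0.48 to −0.12 and a median of −0.34, and 11 of their 12 probes above background on both arrays did so as well (50% of all such named probes). The 8 genes were below 0 and below the trend under every alternative calculation tried. With a spot error of 0.20 on each difference, Lsm4 was the 1 ring gene that deviated by over 2 errors. Proliferation markers lay below the trend in 10 of 11 cases (52.0% of all genes), with a median difference of −0.52 and a median deviation of −0.36. Of these 11, 5 were 1.5-fold lower (9.48% of all genes), among them Aurka (−1.02) and Birc5 (−0.92). Cdk1 (−0.17) and Top2a (−0.21) were nearer 0. Aurkb, above background on 1 array only, was the 1 gene above 0 and above the trend, with a difference of 0.58 and a deviation of 0.28. Their part in the position of the Lsm rings, and that of the pancreas and neutrophil genes, was not tested. In whole spleen, fewer cells of a type and less RNA per cell cannot be told apart.

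Lsm4, a ring subunit with a long tail beyond its Sm fold, had signals of 7850 on the wild-type and 7005 on the knockout-labelled array, a difference of −0.69 ± 0.20. Lsm7 had 13911 and 13095, a difference of −0.61 ± 0.20. These were the 2 ring genes at 1.5-fold, and both had the lower raw signal on the knockout-labelled array. Lsm2 had 8578 and 8823 (−0.48 ± 0.20), and its other probe did not exceed background on either one. Lsm8, which is specific to the nuclear U6 ring, had 1689 and 1768, at −0.46 ± 0.20. Lsm1, specific to the decay ring, had 2680 and 2910, at −0.40 ± 0.20. The genes of the subunits that set the nuclear ring apart from the cytoplasmic one lay within 1 spot error of each other in this calculation. On the median signal, uncorrected or with normexp, Lsm8 was at −0.64 and Lsm1 at −0.29, further apart than 1 spot error.

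Lsm5 was measured by 2 probes at −0.51 and −0.36, the brighter with signals of 4143 and 4185. Lsm6 had 4 probes. Its 3 brighter ones were at −0.53, −0.72 and −0.70, and the dimmest, with signals of 1217 and 1884, was at 0.11. The dimmest is the single ring probe above its trend, at 0.17. Lsm3 was nearest to the trend of the 8, with signals of 3509 and 4161, a difference of −0.28 ± 0.20 and a deviation of −0.12.

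Sm ring genes stayed closer to the trend. The median over 8 genes was −0.27, with a median deviation of −0.02, 5 genes below the trend (52.0% of all genes) and 3 above. Snrpe, the gene of the SmE subunit, was lowest, with signals of 6221 and 5902 and a difference of −0.60 ± 0.20. Its other probe was at −0.45, so both lay below their trend. Snrpd2 had 3 probes at −0.49, −0.26 and −0.46, and Snrpd1 had 2 at −0.43 and −0.44.

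The other Sm genes differed little from genes of like signal. Snrpg (SmG) was at −0.38 with both probes, its brighter one with signals of 24808 and 27478. Snrpb (SmB), at −0.17, lay at a deviation of −0.02. Snrpf (SmF) at −0.16 and Snrpd3 (SmD3) at −0.09 lay at deviations of 0.03 and 0.06, and both turned positive once the trend was removed. Snrpn, an imprinted gene whose protein is a close relative of SmB and is known from brain, exceeded background only on the array of the knockout-labelled sample. Its processed signals were 50 and 100, which is 1.40-fold higher there after scaling (0.48 ± 0.44, under 2 software errors). Its next probe was at 0.08 ± 0.45. This direction did not hold without the software's background treatment: the difference was −0.04 on the uncorrected median signal and −0.02 with normexp. Whether its probes also take up Snrpb RNA was not tested.

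The Lsm genes outside these rings went separate ways. Lsm10 and Lsm11 replace the SmD1 and SmD2 proteins in the U7 particle, which processes histone mRNA, and lay at deviations of 0.02 and 0.00, with differences of −0.14 and 0.07 that took either sign under other calculations. Lsm10 was printed 10 times, and its spots ran from −0.32 to −0.03 with an SD of 0.0935. Lsm14a and Lsm14b, both linked to processing bodies, lay on opposite sides. Lsm14a had signals of 12104 and 10999 (−0.66 ± 0.20), and Lsm14b had 659 and 1234 (0.38 ± 0.21), with another probe at 0.16. Lsm12 was at −0.26 with 1 probe.

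Genes of the U1 and U2 particles lay near the trend. Snrnp70, whose protein binds the first stem-loop of U1, had signals of 21462 and 22269, a difference of −0.47 and a deviation of −0.14. Snrpc, a U1 protein that helps pair U1 with the 5′ splice site, was at −0.27, and Snrpa, whose protein binds the second stem-loop of U1, at 0.13 with a deviation of 0.28. The U2 protein genes Snrpa1 and Snrpb2, which encode a pair of proteins that bind U2 together, were at −0.37 and −0.25.

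SF3a and SF3b genes lay around the trend, with a median deviation of 0.09, 6 of 9 above (48.0% of all genes) and 3 below. Sf3a2, a zinc finger subunit of SF3a, had signals of 3836 and 7622, a difference of 0.47 ± 0.20. Sf3b4, an RNA-binding subunit of SF3b, had signals of 5018 and 9521, a difference of 0.40 ± 0.20, and its dimmer probe was at 0.16 with a deviation of 0.07. The raw signal of both was over 1.5-fold higher on the knockout-labelled array, beyond the rise in its 75th percentile. Sf3a1 and Sf3a3 encode the partners of Sf3a2 and were both at −0.20 (deviations −0.04 and 0.03).

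Within SF3b, Sf3b1, the large scaffold that closes around the branch point, had signals of 956 and 1485 and a difference of 0.11 ± 0.20. Sf3b2 and Sf3b3 were at −0.11 and −0.14, each above the trend by 0.13 and 0.09. Sf3b6, whose protein contacts the branch point, and Sf3b5 were at −0.31 and −0.35, with deviations of −0.04 and −0.17. Sf3a3, Sf3b2 and Sf3b3 turned positive once the trend was removed, so their direction depends on it.

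**Figure D4:**
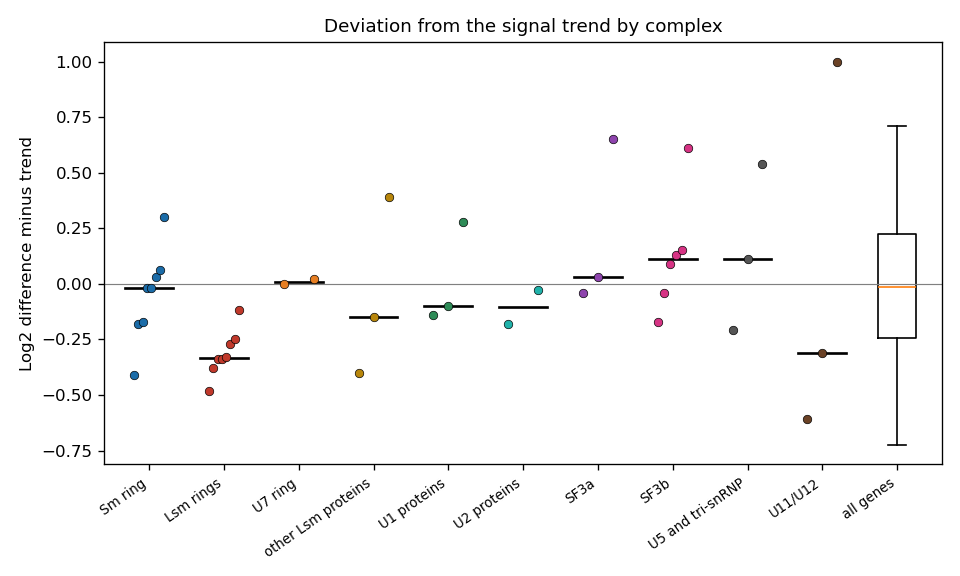
Log2 difference minus the signal trend for each gene's brightest probe, by complex (points), with the complex median (bars) and a box plot of all 13716 genes (box, 25th to 75th percentile; whiskers, 5th to 95th). The Lsm rings are the largest complex with every gene below 0, and Snrnp48 lies above the upper whisker, which is at 0.71.

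Genes of the U5 particle and the tri-snRNP, the assembly of U4, U6 and U5, were mixed. Snrnp200, the helicase that unwinds U4 from U6, had 2 probes that disagreed. The brighter had signals of 5778 and 10429 (0.33 ± 0.20) and the other 1915 and 2033 (−0.44 ± 0.20), so the median of its probes was −0.05. Snrnp27, of the tri-snRNP, was at −0.42 and Snrnp40, of U5, at 0.02 with another probe at −0.07 and either sign under other calculations.

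The minor spliceosome held both extremes relative to the trend. Snrnp48, Snrnp35 and Snrnp25 all encode proteins of the U11/U12 particle. Snrnp48 had signals of 197 and 594 on its single probe, 2.1-fold higher on the knockout-labelled array, and ranged from 0.90 to 1.22 over the alternative calculations, several of which put it below 2-fold. Snrnp35 was lower with both probes, at −0.61 ± 0.21 and −0.58, with signals of 886 and 835 on the brighter one. Snrnp25 had probes at −0.54 and −0.19. Genes for proteins of one particle thus had values on both sides of 0.

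Probes of one gene lay closer together for these genes than for the array as a whole, in a comparison not matched on signal level or number of probes. Whether they lay closer than those of genes of like signal was not tested. Of the 41 genes 13 had 2 or more probes above background on both arrays, and the range between a gene's probes had a median of 0.15, against 0.38 over 2886 such genes. Probes of opposite sign were seen for 3 of the 13 genes (Lsm6, Snrnp200 and Snrnp40), against 46.5% of all such genes. The ranges of 0.83 for Lsm6 and 0.77 for Snrnp200 exceeded 0.7, as did those of 21.5% of all such genes. The other 27 genes with 1 detected probe, and Snrpn, have no such check.

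Other splicing genes, taken from lists chosen with earlier results of these data known, had medians near the trend as well. Over all genes 8.04% were 1.5-fold higher and 9.48% lower, the shares beside which the counts of each list stand. Of 27 further tri-snRNP, U2 and minor spliceosome genes, 1 was 1.5-fold higher and 1 lower, with a median deviation of −0.04. The 1 higher was Ddx23, a helicase of the U5 particle, with signals of 78.4 and 226 (1.01 ± 0.30), and the 1 lower was Luc7l2, at −0.60. Usp39, also of the tri-snRNP, was at 0.32 and Pdcd7, of U11/U12, at −0.51. Of 28 Prp19 complex and catalytic factor genes, 1 was higher and 1 lower (median deviation −0.06), with Syf2 at 0.89 and Ppie at −0.63. Cdc40, a second-step factor, was at 0.55 and Sugp1 at −0.45. Of 10 genes for 3′ splice site recognition, U2af1l4 was higher with its brighter probe (0.62, the other at −0.40) and U2af1 lower (−0.59, the other at −0.14). U2af2, its partner in recognising the 3′ splice site, was at 0.22 ± 0.33 and Puf60 at −0.50.

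Genes that build the particles gave 1 higher and 2 lower among 26 (8.04% and 9.48% of all genes), with a median deviation of −0.10. Usb1, which trims the end of U6, was at 0.98 ± 0.33. Mepce, known for capping 7SK RNA, was at −0.61, and Ncbp2, of the nuclear cap-binding complex, was at −0.74 with another probe at 0.21. Larp7, a partner of 7SK RNA, was at 0.28. The 11 partners of the Lsm1 to Lsm7 ring in mRNA decay had none at 1.5-fold in either direction. Their median deviation was 0.14, with 3 below the trend and 8 above (48.0% of all genes). Among them Edc3 was at 0.56, Xrn1, the exonuclease that follows decapping, at 0.46, Dcps at −0.46 and Edc4 at −0.56.

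Splicing regulators included larger differences. Of 14 SR protein genes 2 were 1.5-fold higher and 2 lower, with a median deviation of 0.13. For this and the next 2 lists the shares over all genes are 8.04% higher and 9.48% lower. Srsf2, which binds exonic enhancers, was at 1.18 and 0.59 with its probes, and Srrm2, a scaffold of nuclear speckles, at 1.25 and 0.63. Srsf5 was at −0.64, and the probes of Srrm1 disagreed, the brighter at −0.61 and the dimmer at 1.25. Of 25 hnRNP genes 3 were higher and none lower (median deviation 0.07), with Hnrnpk at 0.67 and 0.97. Hnrnpul1 was at 0.71 with another probe at −0.42, and Hnrnpa3 and Hnrnph1 were both at −0.52. Of 7 genes for the 3′ end of histone mRNA, on which the U7 particle acts, 1 was higher, Sympk at 1.19, and none lower, and Slbp, the histone stem-loop binding protein gene, was at 0.42 with both probes. Casp8ap2 was at −0.17 and Cpsf2 at −0.44.

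**Figure D5:**
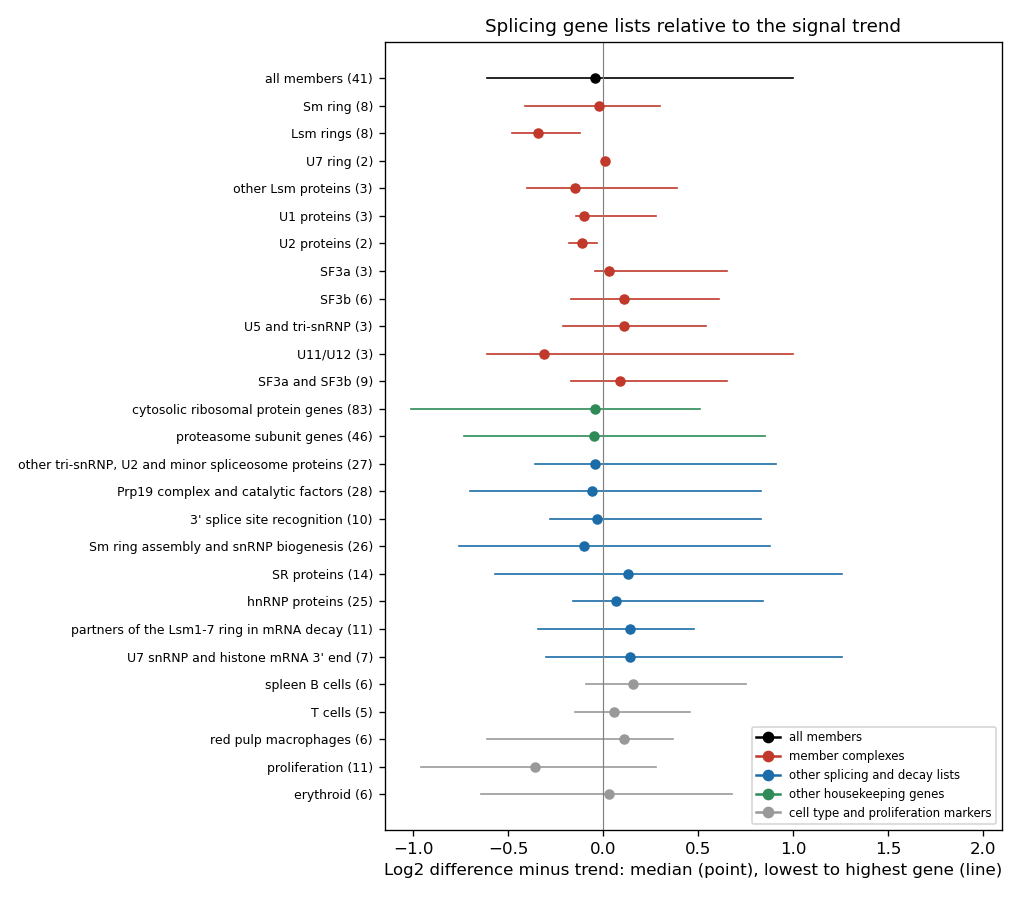
Median log2 difference minus the signal trend (points) and the lowest to highest gene (lines) for the 41 genes, their complexes, other splicing and decay lists, ribosomal and proteasome genes and marker lists, with the number of measured genes in brackets. The Lsm rings, at −0.34, and the proliferation markers, at −0.36, are the lists with medians furthest below 0; lists of exocrine pancreas and neutrophil precursor genes lie outside the plotted range and are left out.

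Other highly expressed housekeeping genes had medians near the trend. Cytosolic ribosomal protein genes had a median difference of −0.51 and a median deviation of −0.04, with 48 of 83 below the trend (52.0% of all genes). Proteasome subunit genes had medians of −0.30 and −0.05, with 27 of 46 below. The 41 genes had medians of −0.27 and −0.04. Whether the Lsm rings differ from these lists could not be tested with 1 array per group.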

How the data were processed

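The authors deposited scanner output with linear intensity per spot, from Feature Extraction 11.0.1.1 under protocol GE1_1100_Jul11, per the file headers. The authors' deposited value table holds log2 values, with no processing stated in the sources used here, and served as an alternative. Control spots and spots with outlier flags were left out, log2 processed signals of a probe's spots were averaged, and each array's 75th percentile was subtracted. A probe counted as above background where the software called at least 0.5 of its spots so. No member spot was saturated. RefSeq transcript accessions of GRCm38.p6, compared without their version, named 27226 of 39420 probes. The array's design names the build mm9, so the assembly served for names, gene order and promoter sequences only.

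A gene was its brightest detected probe (13716 genes), and other probes are given beside it. The trend was a lowess fit (fraction 0.3, statsmodels 0.14.6) over detected probes. It was checked on simulated data with a straight-line trend and changes of over 2-fold, and smaller deviations were not part of that check. For 268 probes with repeated spots, the SD of the difference over spots had a median of 0.112. For a probe above background on 1 array, the dim side was the lowest signal well above background or its own signal, whichever was higher. For the Snrpn probes this was their own signal, so the plain difference is given and is no lower limit. The number of arrays limits the precision. The members, gene lists, motifs and alternatives were chosen with earlier results of these data known. All 41 genes are named, with the 2 highest and 2 lowest genes, among those above background on both arrays, of each splicing, decay and marker list. Aurkb is named besides, chosen after its value was seen, and no ribosomal or proteasome gene is named. Motifs were searched on both strands.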

Additional observations from a re-analysis of the deposited data

How the results depend on the processing

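The median difference of the 41 genes was −0.27 and became −0.07 with quantile normalization, −0.07 with the authors' deposited table and −0.04 with the trend removed. It stayed below 0 under every alternative (lowest −0.37, with median scaling). Genes at least 1.5-fold lower numbered 5. They numbered 9 with median scaling, 3 with normexp (limma 3.58.1, offset 50), 3 on the median signal without background correction, 1 with quantile normalization, 1 with the deposited table, 1 with the trend removed and 0 when scaled on probes above background on both arrays. Genes at least 1.5-fold higher numbered 1, and 3 with that last scaling, 3 with the trend removed, 2 with quantile normalization and 2 with the deposited table. The 1 gene at 2-fold, Snrnp48, passed below 2-fold (0 genes) with median scaling, quantile normalization, the trend removed, the deposited table, normexp and the uncorrected median signal. Scaling on probes above background on both arrays moved the median of all genes from −0.09 to 0.05. Genes below 0 ran from 26 to 33. Of 450 values of single genes under alternatives, 45 moved by more than their spot error, 42 of them upwards, and no gene at 1.5-fold changed sign. All 8 genes of Lsm1 to Lsm8 stayed below the trend, and 6 of 9 Sf3 genes above it, under every alternative that keeps a trend, a comparison chosen after seeing the data. The background alternatives planned on the mean signal were run on the median signal, the column used here. No paired analysis was possible because each group has 1 array. Dim probes, such as those of Snrpn, are limited by signal over background.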

Other observations

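Lsm7 and Sf3a2, which lay on opposite sides of the trend, are near neighbours, with 5 annotated genes between them. This pair was singled out after its values were seen. Sf3a2 was at 0.47 ± 0.20 and Lsm7 at −0.61 ± 0.20. Of the genes between, Jsrp1 was at 0.17 and Oaz1, the ornithine decarboxylase antizyme gene, at −0.53, a deviation of −0.09, while Amh and Lingo3 were not well above background on either array and Mir1982 had no probe. Plekhj1, on the far side of Sf3a2, had probes at 0.16 and 1.02, and Sppl2b, beyond Lsm7, was at −0.15.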
